A study of Mus musculus with 7 samples.

Results

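The earliest comparison of the series set intestinal epithelial cells of knockout mice 4 days after tamoxifen against those of control mice. Its 2 day 4 arrays and 2 control arrays were chosen by their titles, and they are 4 of the 7 arrays of the series. Mice of both groups carried floxed alleles of both Mob1 genes (Mob1a f/f and Mob1b f/f). The knockout mice also carried Villin-creERT2 and the control mice did not. All were male mice of 8 weeks on a C57BL/6J background, and mice of both groups received tamoxifen (80 mg/kg per day on 2 days). Each array held RNA of epithelial cells released by EDTA from the proximal intestine of a different mouse. CreERT2 is active only after tamoxifen and is driven by the Villin promoter in the intestinal epithelium. The controls carry no CreERT2, so the activity of the recombinase cannot be told apart from the loss of the Mob1 genes. The labels describe the controls as taken 7 days after tamoxifen, while the design text gives a time of 0 days, so the day of the controls is not settled. The other arrays, 2 at day 7 and 1 at day 10, entered the fit and are given here only to follow genes of the day 4 comparison.

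Mob1a and Mob1b are adaptor proteins that bind and activate the Lats kinases. In the Hippo pathway these kinases phosphorylate the coactivators YAP and TAZ and keep them out of the nucleus, where they would drive transcription with the TEAD DNA-binding factors. In the intestinal epithelium, YAP activity is known for a regenerative, fetal-like gene programme after injury and for effects on stem cell and secretory lineages.

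A level is the log2 signal of a probe minus the 75th percentile of its array. A difference is day 4 minus control in log2 units, given with the standard error from limma. A probe counted as detected where the scanner software marked it well above background, and features detected on both arrays of at least 1 of the 2 groups were tested. This left 23061 features, of which 13207 were genes with a symbol and 9854 were probes without one. Between 48.0% and 49.8% of probes were detected on these 4 arrays, no spot was saturated, and the 4 arrays lay in the same row of 1 slide. The epithelial genes Vil1, Cdh1, Epcam and Krt20 differed by -0.27 (adjusted p = 0.89, limma), 0.01, 0.01 and 0.07 (adjusted p of at least 0.99 for these 3, limma), and all 4 were detected on all 4 arrays. Of the markers of other cells, 9 of 18 fibroblast, 4 of 12 smooth muscle, 6 of 15 endothelial, 16 of 22 myeloid, 7 of 18 pancreas and 5 of 7 erythroid genes on the array were tested. None of the probes for the stromal genes Pdgfra, Col1a1, Acta2, Myh11 and Cdh5 or for the pancreatic genes Prss1 and Pnlip was detected on any of the 4 arrays, whereas all 20 T cell and intraepithelial lymphocyte markers on the array were tested. Of the 9 fibroblast genes, 6 lay below both controls without overlap (66.7% against 27.7% of all features), 2 of them at an unadjusted p under 0.05, Fn1 (-1.38 ± 0.48) and Col6a1 (-1.29 ± 0.51, adjusted p = 0.61 and 0.70, limma). Their summed signal was 16.1 and 15.8 times the array's 75th percentile in the controls and 11 and 15.3 times at day 4, and their part in the results was not tested. In bulk samples such as these, fewer cells of a type and less RNA per cell cannot be told apart.

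Few genes passed the threshold at day 4, and with all 7 arrays fitted nearly all of these were higher in the knockout. When control replicate 1 or control replicate 2 was left out, more of the calls were lower than higher. At an adjusted p under 0.05 (limma, Benjamini-Hochberg over all features) 31 features were called, which is 0.134% of those tested. Of these, 27 were higher (0.117%) and 4 were lower (0.0173%). The calls comprised 26 named genes, 24 higher and 2 lower, and 5 probes without a symbol. On all 31 the 2 day 4 arrays lay on the same side of both control arrays. Over all features 10.9% were higher and 27.7% lower without overlap. The 31 were chosen by their difference on these same arrays, so their lack of overlap is no further evidence. Of the 27 higher features, 14 were detected on all 4 arrays, 2 on 1 control array and 11 on no control array. For those 11 the words "at least" mark a fold that is a bound. Of the 10 named genes among them, Esr1 (3.91) and Septin12 (1.81) were also called with normexp background correction, whose offset of 50 added to each signal shrinks differences of dim probes. The count was 8 with the filter set to detection on any 2 of the 7 arrays, all among the 31. It was 13 when only the 4 arrays were fitted, and 10 of these were among the 31. Leaving out 1 mouse gave 6 calls when it was day 4 replicate 1 and 1 call when it was day 4 replicate 2. It gave 49 calls for control replicate 1 and 166 for control replicate 2. Esr1 was called in each of these fits that left out 1 array, and Wwc2 in each except the one without day 4 replicate 2 (adjusted p = 0.064).

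**Figure D1:**
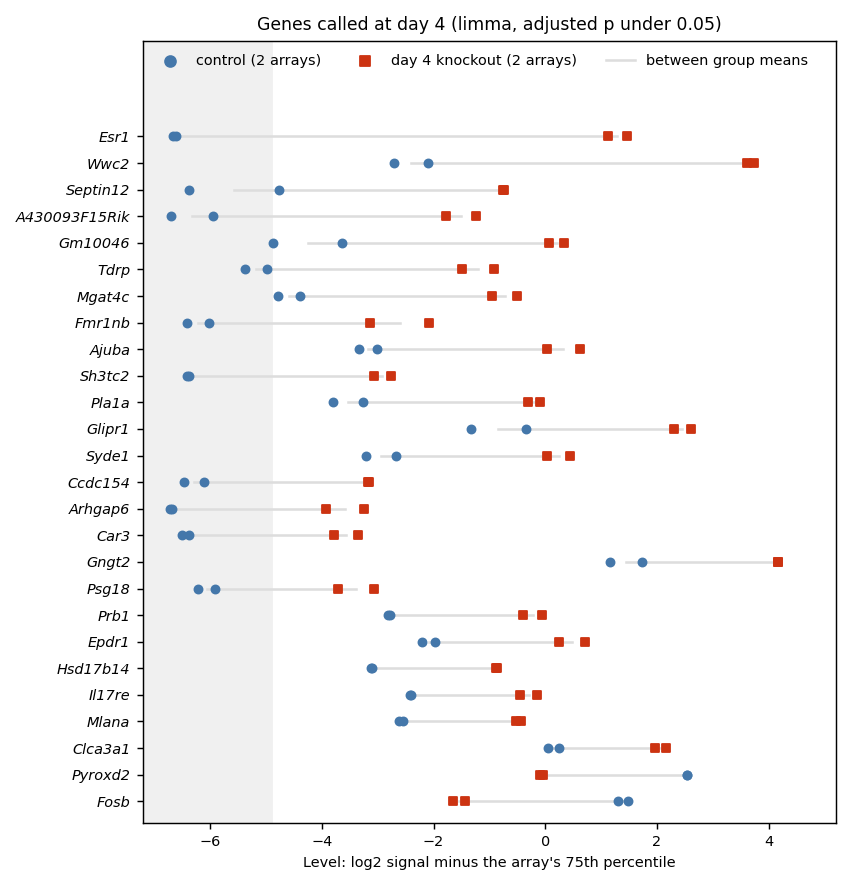
Levels (log2 signal minus the array's 75th percentile) of the 26 named genes called at day 4, ordered by difference. Blue circles are the 2 control arrays, red squares are the 2 day 4 arrays, grey lines join the group means, and the shaded range lies below the lowest detected signal of the 4 arrays. The day 4 arrays lay to the right of both control arrays for 24 genes and to the left for Pyroxd2 and Fosb.

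Below the threshold, 1606 features (6.96%) had an unadjusted p under 0.05, 637 of them higher (2.76%) and 969 lower (4.2%). The higher share was 39.7% of these, against 49.6% with quantile normalization and 48.9% with median scaling. The median difference over all features was -0.08. The control and day 4 arrays did not overlap for 2520 features that were higher (10.9%) and 6381 that were lower (27.7%). With a difference of at least 1 as well, 418 were higher (1.81%) and 379 lower (1.64%). With 2 arrays against 2, an exact permutation test of a single gene cannot give a 2-sided p below 0.333. Every call therefore rests on the spread in the limma model, which blends a gene's own spread within groups with that across all features.

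**Figure D2:**
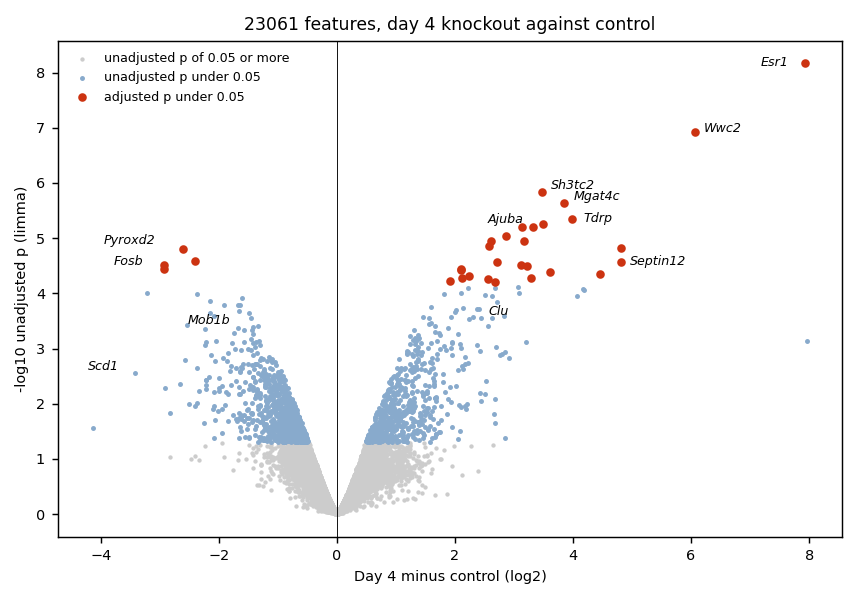
Difference between day 4 and control (log2, horizontal axis) against the negative log10 of the unadjusted limma p (vertical axis) for 23061 features. Red points have an adjusted p under 0.05, blue points an unadjusted p under 0.05. Esr1 (plotted at 7.93, not detected in the controls) and Wwc2 (6.07) stand apart from the other called genes at the upper right, and Fosb (-2.94) and Pyroxd2 (-2.60) are the 2 named genes called lower.

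The targeted genes were measured by few probes. Mob1b was at -0.90 and -1.13 in the controls and at -2.47 and -2.42 at day 4, so that the groups did not overlap. Its difference was -1.43 ± 0.22 (adjusted p = 0.12, limma), and its other probe differed by -1.0. Mob1a had 1 dim probe, at -3.87 and -3.71 in controls and at -4.26 and -3.85 at day 4, with a difference of -0.27 ± 0.24 (adjusted p = 0.91, limma). Whether these probes lie in the deleted exons was not known, so they check the labels only in part.

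Among genes of the Hippo pathway, Wwc2 and Ajuba rose. Wwc2 is a relative of the upstream activator Kibra. Its level was -2.71 and -2.10 in the controls and 3.60 and 3.73 at day 4, a 67.3-fold difference (6.07 ± 0.26, adjusted p = 0.0014, limma). The day 7 arrays were higher again, at 4.97 and 4.82. Ajuba, a LIM scaffold that can restrain the Lats kinases, was at -3.02 and -3.34 in the controls and at 0.61 and 0.02 at day 4, 11.3-fold higher (3.50 ± 0.27, adjusted p = 0.018, limma). On the day 7 arrays Ajuba was at 2.85 and 2.75. The call of Ajuba ended without either day 4 replicate and without either day 7 replicate (highest adjusted p = 0.15 over its alternatives).

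Of 30 tested Hippo components on a list of 35, 7 had an unadjusted p under 0.05 with a higher level (23.3% against 2.76% of all features) and 2 with a lower one (6.67% against 4.2%). Beside the 2 called, the higher ones were the Ajuba relative Wtip (1.92 ± 0.28, adjusted p = 0.097), the angiomotin genes Amotl2 (1.34 ± 0.23, adjusted p = 0.17) and Amot (0.69 ± 0.24, adjusted p = 0.60), Kibra itself, Wwc1 (1.19 ± 0.22, adjusted p = 0.20), and the DNA-binding factor gene Tead1 (0.83 ± 0.26, adjusted p = 0.54). The lower ones were the deleted gene Mob1b and Tead2 (-1.24 ± 0.43, adjusted p = 0.61), all by limma. Wtip was at -0.54 and -0.24 in the controls and at 1.81 and 1.25 at day 4. The kinases and coactivators that form the core of the pathway differed little. The difference was 0.04 for Stk4, 0.18 for Stk3, 0.11 for Lats1, 0.11 for the scaffold gene Sav1 and 0.07 for Yap1, with adjusted p between 0.95 and 0.99 (limma), while Lats2 differed by 0.52 ± 0.30 (adjusted p = 0.85, limma) and Wwtr1, which encodes TAZ, by 0.85 ± 0.41 (adjusted p = 0.80, limma). The median over the list was 0.10, and it was -0.03 with normexp background correction.

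Of 15 tested YAP and TAZ target genes on a list of 26, 6 had an unadjusted p under 0.05 with a higher level (40.0% against 2.76% of all features) and none with a lower one. The groups did not overlap for 7 members, all of them higher (46.7% against 10.9% of all features). The median difference was 0.52 against -0.08 over all features. Beside Ajuba and Amotl2, these were Ccn1, a secreted matrix protein (2.01 ± 0.28, adjusted p = 0.085), the tissue factor gene F3 (1.27 ± 0.30, adjusted p = 0.32), the EGF receptor ligand gene Ereg (1.47 ± 0.57, adjusted p = 0.69) and Crim1, a membrane protein that binds BMPs (0.89 ± 0.36, adjusted p = 0.71), by limma. Ccn1 was at -2.57 and -2.08 in the controls, at -0.41 and -0.23 at day 4 and at 1.93 and 1.46 at day 7. Amotl2 was at -0.74 and -0.87 in the controls and at 0.54 and 0.53 at day 4. The median of the list stayed above 0 in all 19 alternatives, between 0.16 with no filter on dim probes and 0.86 without day 4 replicate 1.

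The promoters of these genes are shown because TEAD factors bind the letters GGAATG. RefSeq promoter windows around the transcript start (GRCm38.p6) were searched for GGAATG on both strands, and the motif or its complement CATTCC is in capitals.
Wwc2, chr8:47990495-47990794, minus strand: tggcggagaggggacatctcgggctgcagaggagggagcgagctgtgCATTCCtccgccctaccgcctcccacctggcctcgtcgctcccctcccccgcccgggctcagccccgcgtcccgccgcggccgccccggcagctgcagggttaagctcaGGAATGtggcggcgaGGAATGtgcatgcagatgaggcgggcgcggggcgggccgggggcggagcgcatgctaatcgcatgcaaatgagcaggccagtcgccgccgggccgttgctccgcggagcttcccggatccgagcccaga
Ajuba, chr14:54577612-54577911, minus strand: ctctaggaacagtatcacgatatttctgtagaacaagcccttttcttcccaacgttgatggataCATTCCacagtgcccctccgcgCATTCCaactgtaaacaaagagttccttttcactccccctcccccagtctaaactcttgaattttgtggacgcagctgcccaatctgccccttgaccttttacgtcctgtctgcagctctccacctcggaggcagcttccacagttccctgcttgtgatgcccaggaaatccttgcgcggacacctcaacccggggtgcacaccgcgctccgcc
Wtip, chr7:34133219-34133518, minus strand: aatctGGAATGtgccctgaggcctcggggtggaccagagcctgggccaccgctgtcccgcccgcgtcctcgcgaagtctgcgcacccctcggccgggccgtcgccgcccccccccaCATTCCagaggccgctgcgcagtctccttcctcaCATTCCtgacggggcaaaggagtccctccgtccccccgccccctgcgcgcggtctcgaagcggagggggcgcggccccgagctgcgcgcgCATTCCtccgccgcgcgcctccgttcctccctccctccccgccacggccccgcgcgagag
Ccn1, chr3:145649936-145650235, minus strand: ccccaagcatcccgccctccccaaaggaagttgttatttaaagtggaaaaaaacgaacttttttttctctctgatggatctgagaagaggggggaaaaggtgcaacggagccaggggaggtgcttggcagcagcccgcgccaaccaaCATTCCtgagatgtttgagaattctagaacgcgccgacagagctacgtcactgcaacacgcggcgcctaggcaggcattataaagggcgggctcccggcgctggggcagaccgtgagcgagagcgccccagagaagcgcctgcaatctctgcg
Amotl2, chr9:102717554-102717853, plus strand: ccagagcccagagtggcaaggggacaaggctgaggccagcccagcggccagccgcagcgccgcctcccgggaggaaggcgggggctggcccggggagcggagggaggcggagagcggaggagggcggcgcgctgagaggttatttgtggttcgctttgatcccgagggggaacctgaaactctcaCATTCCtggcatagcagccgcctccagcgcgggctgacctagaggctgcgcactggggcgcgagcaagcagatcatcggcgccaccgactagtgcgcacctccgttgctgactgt
The Wwc2 window held 3 matches, the Ajuba window 2, the Wtip window 4, and the Ccn1 and Amotl2 windows 1 each. Of the 7 Hippo genes higher at an unadjusted p under 0.05, 6 had a window and 4 of these held the motif, with no match for Wwc1 or Amot. Of the 6 YAP and TAZ targets, 5 had a window and 4 held it, with none for F3. Among all RefSeq windows 14.7% held the motif, and by gene 16.6%. Among the 26 named genes called at day 4, 17 had a window and 6 of these held it. A match is a description of these letters, and the genes were chosen by their values.

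Esr1 had the smallest adjusted p of all features. It encodes the oestrogen receptor, and CreERT2 is Cre fused to a mutated ligand-binding part of that receptor. The probe was not detected in the controls, at -6.66 and -6.60, and was at 1.12 and 1.47 at day 4, at least 68.2-fold higher (adjusted p = 0.00016, limma). The levels at day 7 (1.42 and 1.53) and day 10 (0.87) were close to those of day 4. The other 2 Esr1 probes were not detected on any of the 4 arrays. Whether the probe measured Esr1 or the transgene was not tested.

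The other called genes are given by what each is known to encode. Syde1 and Arhgap6 encode activators of GTP hydrolysis by small GTPases. Syde1 was at -3.20 and -2.67 in the controls and at 0.44 and 0.03 at day 4 (3.17 ± 0.28, 9.01-fold, adjusted p = 0.024, limma). By 1 probe Arhgap6 was higher by at least 2.32-fold (adjusted p = 0.037, limma), and the other Arhgap6 probe was not detected. With normexp its difference was 0.41 (adjusted p = 0.78, limma). Septin12, a septin of the cytoskeleton, was not detected in the controls, at -4.77 and -6.38, and was at -0.74 and -0.76 at day 4, at least 16.5-fold higher (adjusted p = 0.037, limma). The other Septin12 probe was not detected on any of the 4 arrays, and the call ended when only these arrays were fitted. Gngt2, a gamma subunit of heterotrimeric G proteins, was at 1.16 and 1.73 in the controls and at 4.16 on both day 4 arrays (2.71 ± 0.27, 6.55-fold, adjusted p = 0.037, limma). Il17re, a receptor subunit for interleukin 17 ligands, was at -2.42 and -2.40 in the controls and at -0.15 and -0.45 at day 4 (2.11 ± 0.22, 4.32-fold, adjusted p = 0.038, limma). Over 19 alternatives Il17re was called in 9, Gngt2 in 11 and Syde1 in 12. Each of these calls ended when only the 4 arrays were fitted, and that of Il17re also with normexp. Sh3tc2, a protein of recycling endosomes, was at least 3.70-fold higher at day 4 (adjusted p = 0.011, limma) and continued to 1.17 and 1.34 on the day 7 arrays from -2.77 and -3.06 at day 4. With normexp its day 4 difference was 0.58 (adjusted p = 0.78, limma).

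Enzymes and secreted or surface proteins were also among the called genes. Pla1a, a phospholipase that acts on phosphatidylserine, was at -3.80 and -3.27 in the controls and at -0.31 and -0.10 at day 4 (3.32 ± 0.26, 10.0-fold, adjusted p = 0.018, limma). Hsd17b14, a hydroxysteroid dehydrogenase, was at -3.12 and -3.11 in the controls and at -0.86 and -0.88 at day 4 (2.24 ± 0.25, 4.74-fold, adjusted p = 0.044, limma). Glipr1, of the CAP protein family, was at -0.35 and -1.33 in the controls and at 2.30 and 2.61 at day 4 (3.29 ± 0.37, 9.81-fold, adjusted p = 0.044, limma). The groups did not overlap for any of these 3 genes, as for all 31 called features. Over 19 alternatives Pla1a was called in 13 and Glipr1 in 10, and both calls ended when only the 4 arrays were fitted. Mgat4c, a glycosyltransferase family gene, was 14.4-fold higher (3.85 ± 0.26, adjusted p = 0.013, limma) with detection on 1 control array. Its other probe was not detected in the controls, so its difference of 3.29 is taken from undetected signal. The salivary proline-rich protein gene Prb1 was 5.95-fold higher (adjusted p = 0.026, limma). Its other probe was not detected in the controls, so its difference of 5.35 is likewise taken from undetected signal. Prb1 was called in 10 of 19 alternatives, and the call ended with normexp and when only the 4 arrays were fitted. Epdr1, a secreted ependymin relative, was 5.91-fold higher (adjusted p = 0.044, limma) and Clca3a1, of a family of chloride channel regulators, 3.78-fold (adjusted p = 0.047, limma). Over 19 alternatives, Epdr1 and Hsd17b14 were called in 8 and Clca3a1 in 7 (highest adjusted p = 0.25 for each, limma). Clca3a1, Prb1 and Psg18 belong to families of near-identical genes, and which member their probes measured is uncertain.

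Several called genes are known mainly from other tissues and were dim in these cells. Tdrp, named for testis development, was at least 12.1-fold higher, Fmr1nb, a testis gene, at least 4.58-fold, Ccdc154 at least 3.11-fold and the pregnancy-specific glycoprotein gene Psg18 at least 2.67-fold (adjusted p from 0.018 to 0.047, limma). With normexp the differences were 1.43, 0.89, 0.42 and 0.37 in that order and none was called (adjusted p from 0.18 to 0.78, limma). Over the alternatives Psg18 was called in 6 of 18 and Fmr1nb in 8 of 18. The other Fmr1nb probe was not detected on any of the 4 arrays. Mlana, a melanosome protein gene detected on all 4 arrays, was at -2.54 and -2.62 in the controls and at -0.53 and -0.43 at day 4 (4.29-fold, adjusted p = 0.038, limma). It was called in 9 of 19 alternatives, and the call ended with normexp and when only the 4 arrays were fitted. The transcripts A430093F15Rik (at least 9.79-fold) and Gm10046 (4.46 ± 0.48, detected on 1 control array) were also called, Gm10046 in 7 of 19 alternatives. Of the probes without a symbol, A_30_P01021588, labelled H19 on the array, was at least 1.68-fold higher (adjusted p = 0.024, limma). It was called in 12 of 19 alternatives. The other higher ones were A_55_P2092441 (3.23 ± 0.33) and A_55_P2010567 (2.12 ± 0.24, adjusted p = 0.037 and 0.044, limma). Car3, a carbonic anhydrase of muscle and fat, was at least 2.34-fold higher (adjusted p = 0.023, limma), and with normexp its difference was 0.33 (adjusted p = 0.78, limma). Of the 12 mesothelium and adipocyte markers that include Car3, 3 were tested and 8, among them Adipoq and Plin1, were not detected on any of the 4 arrays. The signal summed over the 3, as multiples of the array's 75th percentile, was 28.1 and 61.5 in the controls and 31.0 and 51.5 at day 4.

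The 2 named genes that fell were detected on all 4 arrays. Pyroxd2, a mitochondrial oxidoreductase gene, was at 2.53 in both controls and at -0.05 and -0.09 at day 4 (-2.60 ± 0.24, 6.07-fold lower, adjusted p = 0.026, limma). On the day 7 arrays it was at 2.20 and 2.67, around the control level, and on the day 10 array at -1.01. Fosb, an immediate early transcription factor gene, was at 1.48 and 1.30 in the controls and at -1.43 and -1.66 at day 4 (-2.94 ± 0.30, 7.65-fold lower, adjusted p = 0.037, limma). Both calls ended without control replicate 1 and without either day 4 replicate, with adjusted p of up to 0.20 for Pyroxd2 and 0.23 for Fosb over their alternatives. The 2 other features that fell were probes without a symbol, A_66_P109786 (-2.93 ± 0.31, adjusted p = 0.038, limma) and A_55_P1993001 (at least 1.39-fold lower, adjusted p = 0.037, limma), the latter not detected on either day 4 array.

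The called genes differed in what followed on the later arrays, given here as levels with no test, since the day 4 values chose these genes. Mlana, Prb1 and Glipr1 had levels at day 7 within 1 log2 unit of both day 4 arrays. Pla1a went on from -0.31 and -0.10 at day 4 to 3.03 and 3.31 at day 7. Hsd17b14 lay at -2.16 and -1.63 at day 7, between the day 4 and control levels, and at -2.91 on the day 10 array. Septin12 was at -0.90 and -0.85 at day 7 and at -3.70 on the day 10 array.

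**Figure D3:**
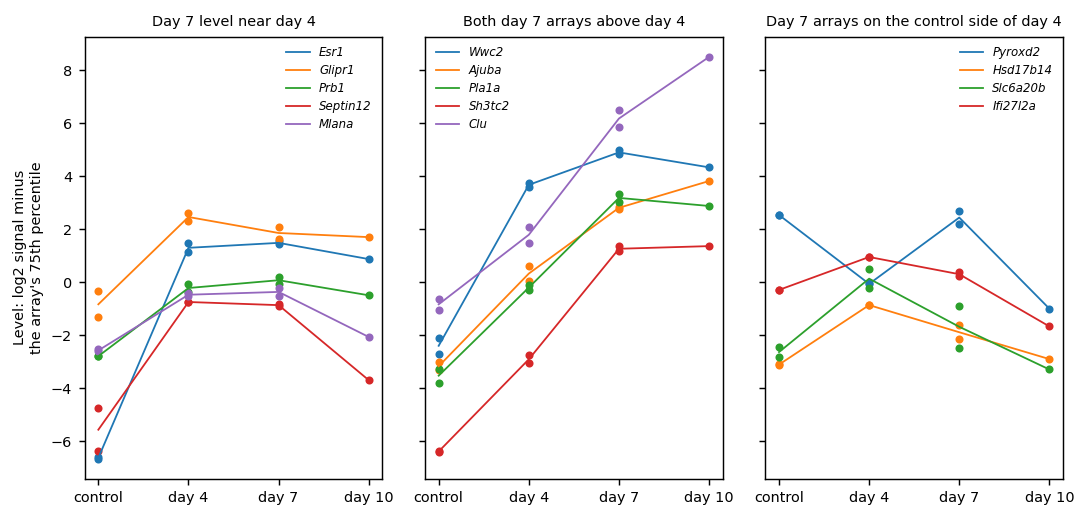
Levels (log2 signal minus the array's 75th percentile, vertical axis) of 14 genes in control, day 4, day 7 and day 10 samples (horizontal axis). Points are arrays and lines join group means. The left panel holds genes whose day 7 level lay near day 4, the middle panel genes with both day 7 arrays above day 4 (Clu reached 6.47 and 5.86 at day 7), and the right panel genes whose day 7 arrays lay on the control side of day 4 (Pyroxd2 at 2.20 and 2.67). The genes were chosen after their values were seen.

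Just outside the threshold lay Ddah1 (3.06 ± 0.36, adjusted p = 0.054), which encodes an enzyme that degrades methylarginines, Hrct1 (at least 2.39-fold higher, adjusted p = 0.054), Sh3bgr (2.21 ± 0.26, adjusted p = 0.054), the tight junction gene Cldn8 (at least 6.52-fold higher, adjusted p = 0.055), the biotin and pantothenate transporter gene Slc5a6 (1.81 ± 0.22, adjusted p = 0.058) and Clu, a secreted chaperone of regenerating epithelium (2.62 ± 0.33, adjusted p = 0.059), all by limma. Just inside it were Clca3a1 and Psg18 (adjusted p = 0.047, limma). Clu was at -1.05 and -0.63 in the controls and at 2.08 and 1.48 at day 4. Slc5a6 was at 3.34 and 3.22 in the controls and at 4.96 and 5.23 at day 4.

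Among named genes with an unadjusted p under 0.01 and groups that did not overlap, 177 were higher and 141 lower. Over all features, 1.1% were higher and 1.14% lower at an unadjusted p under 0.01. Lower genes in this pool, beside Fosb and Pyroxd2, included Scd1, a fatty acid desaturase (-3.42 ± 0.75, adjusted p = 0.28), the secreted phospholipase gene Pla2g5 (-2.66 ± 0.63, adjusted p = 0.33), Peli3 and Cemip, neither detected at day 4 (at least 2.54-fold and 2.82-fold lower, adjusted p = 0.35 and 0.34), and the retinol-binding protein gene Rbp7 (-2.15 ± 0.28, adjusted p = 0.068), by limma. Scd1 varied within the controls, at -2.30 and -0.63, and was at -5.37 and -4.40 at day 4, where 1 array detected it. Rbp7 was at 4.11 and 3.76 in the controls, 2.05 and 1.51 at day 4 and -1.15 and -0.86 at day 7. The smallest p among lower genes detected on all 4 arrays, beyond those named above, belonged to the platelet-activating factor receptor gene Ptafr (-1.64 ± 0.22, adjusted p = 0.077), the keratin gene Krt31 (-1.49 ± 0.21, adjusted p = 0.088), the tetraspanin gene Tspan1 (-1.45 ± 0.21, adjusted p = 0.097) and the Paneth cell defensin gene Defa21 (-1.34 ± 0.21, adjusted p = 0.12), by limma. Defensin genes are near-identical, and which one the Defa21 probe measured is uncertain. On the higher side, Emp2, an epithelial membrane protein gene detected on 1 control array, differed by 3.21 ± 0.55 (adjusted p = 0.17, limma). Its other probe, detected on all 4 arrays, differed by 1.635.

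Interferon-stimulated genes were higher at day 4 as unadjusted trends, with no member called. Type I and III interferons induce these genes through complexes that bind the interferon-stimulated response element. Of 34 tested members on a list of 38, 16 had an unadjusted p under 0.05 with a higher level (47.1% against 2.76% of all features) and none with a lower one. The groups did not overlap for 25 members that were higher (73.5% against 10.9%) and 1 that was lower. The median difference was 0.60 against -0.08 over all features, and on the day 4 arrays singly it was 0.53 and 0.66. With other scalings and backgrounds the number that were higher without overlap was between 23 and 27. Over 19 alternatives the median was between 0.47 and 0.67.

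Members of the oligoadenylate synthetase family, which sense double-stranded RNA, were among them. Oas2 was at 0.84 and 0.52 in the controls and at 1.59 and 1.84 at day 4 (1.04 ± 0.23, adjusted p = 0.29, limma). Oasl2 was at 3.38 and 3.35 in the controls and at 4.24 and 4.30 at day 4 (0.91 ± 0.21, adjusted p = 0.32, limma). Oas1g, not detected in the controls, was at least 1.73-fold higher (adjusted p = 0.22, limma), and its difference with normexp was 0.10. Oas1a differed by 0.80 ± 0.27 and Oas3 by 0.54 ± 0.23. The smallest p of the list was that of Ifi27l2a, at -0.31 and -0.29 in the controls and at 0.94 and 0.95 at day 4 (1.24 ± 0.20, adjusted p = 0.15, limma). Ifit1, which binds viral RNA ends, was at 1.27 and 1.50 in the controls and at 2.23 and 2.63 at day 4 (1.04 ± 0.27, adjusted p = 0.38, limma). The regulator Usp18, which removes the ubiquitin-like protein ISG15, differed by 1.20 ± 0.28 (adjusted p = 0.31, limma), and Isg15 itself by 0.60 ± 0.24 (adjusted p = 0.70, limma).

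The response element was searched as the letters GAAA, any 2 bases and GAAA again on both strands in the same RefSeq windows, with matches in capitals, for 2 members that show its arrangement.
Oas1g, chr5:120887564-120887863, minus strand: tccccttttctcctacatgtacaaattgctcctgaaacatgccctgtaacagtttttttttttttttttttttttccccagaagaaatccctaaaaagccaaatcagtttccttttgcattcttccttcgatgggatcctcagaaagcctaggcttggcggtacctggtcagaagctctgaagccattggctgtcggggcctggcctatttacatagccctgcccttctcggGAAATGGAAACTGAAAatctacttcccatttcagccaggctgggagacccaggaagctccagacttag
Ifit1, chr19:34640639-34640938, plus strand: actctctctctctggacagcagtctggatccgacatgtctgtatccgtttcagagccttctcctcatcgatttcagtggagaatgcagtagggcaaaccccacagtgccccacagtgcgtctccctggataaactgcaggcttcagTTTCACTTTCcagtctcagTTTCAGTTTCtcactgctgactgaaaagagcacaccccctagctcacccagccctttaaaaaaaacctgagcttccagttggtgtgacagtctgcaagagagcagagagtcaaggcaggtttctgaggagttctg
The Oas1g window held 2 overlapping matches and the Ifit1 window 2 separate ones. Of the 16 members higher at an unadjusted p under 0.05, 12 had a window and 7 of these held the motif. Over the tested list 14 of 25 genes with a window held it, against 3.99% of all genes, as is known of this gene class. The windows of Ifi44, Oasl2, Xaf1, Herc6 and Ifit2 held no match to these letters.

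Guanylate-binding and immunity-related GTPase genes, which interferon gamma induces, had 4 of 15 tested members higher at an unadjusted p under 0.05 (26.7% against 2.76% of all features) and 1 lower (6.67% against 4.2%), with a median of 0.32. Gbp3 differed by 1.31 ± 0.35, Gbp7 by 1.57 ± 0.42, Irgm2 by 1.05 ± 0.31 and Igtp by 1.38 ± 0.46 (adjusted p from 0.40 to 0.57, limma). Genes of MHC class I antigen processing had 1 of 26 higher (3.85% against 2.76%), H2-M3 (1.17 ± 0.30, adjusted p = 0.38, limma), and a median of -0.05. Summed markers of T cells and myeloid cells did not exceed both controls on either day 4 array, and the part of these cells in the values of the interferon lists was not tested. The signal summed over the 20 T cell markers was 283 and 352 in the controls and between 268 and 290 at day 4. Summed over 16 myeloid markers it was 48.6 and 49.2 in the controls and 34.6 and 43.0 at day 4. The macrophage gene Adgre1, not detected in the controls, was at least 1.75-fold higher (adjusted p = 0.49, limma), and Cd14 differed by -0.90 ± 0.33 (adjusted p = 0.65, limma).

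**Figure D4:**
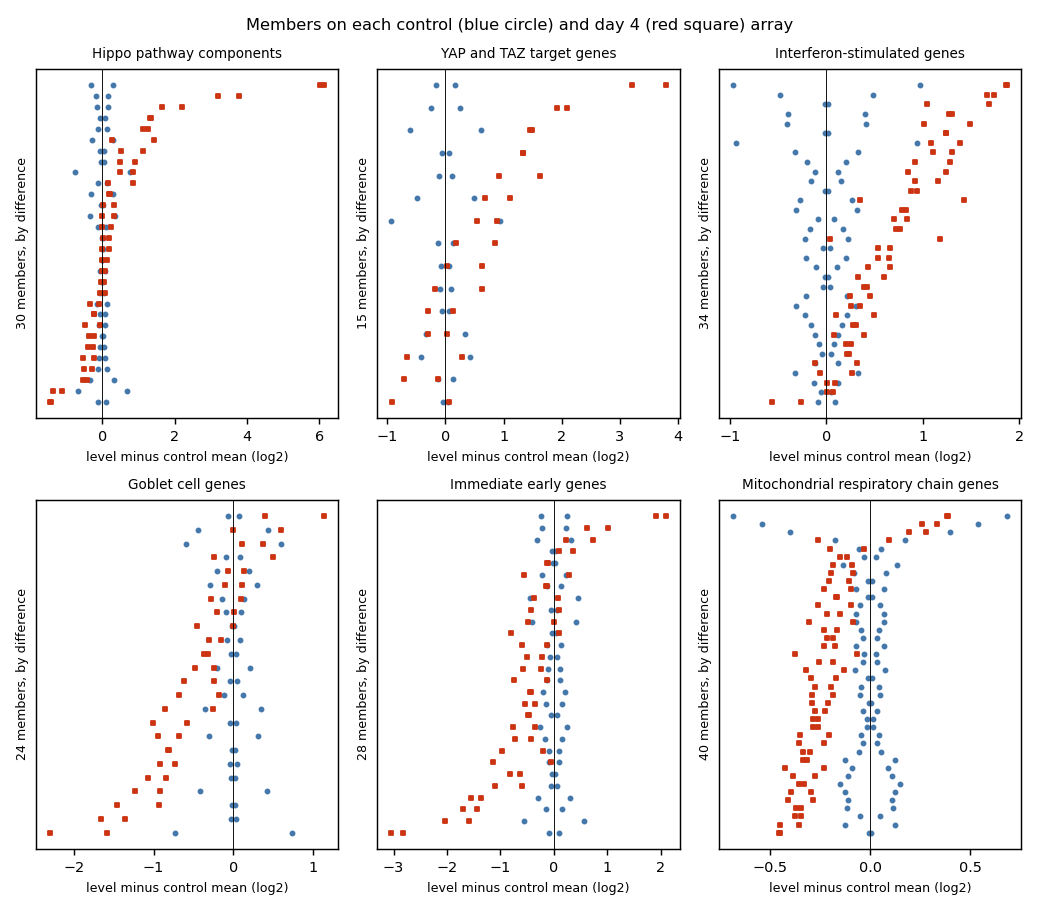
Level minus the control mean (log2, horizontal axis) for each tested member of 6 gene lists, with members in rows ordered by difference. Blue circles are the 2 control arrays and red squares the 2 day 4 arrays. Most interferon-stimulated genes lay to the right of both controls (25 of 34), and most respiratory chain genes slightly to the left (34 of 40, with a median of -0.23).

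Goblet cell genes were lower at day 4 as unadjusted trends, whereas Paneth cell genes had a share near that of all features. Of 24 goblet cell genes, 8 had an unadjusted p under 0.05 with a lower level (33.3% against 4.2% of all features) and 1 with a higher one. The groups did not overlap for 14 that were lower (58.3% against 27.7%). The median was -0.39, and it was -0.24 without day 4 replicate 1. The 8 lower genes included the secretory transcription factor genes Spdef (-1.07 ± 0.33, adjusted p = 0.50) and Creb3l1 (-0.95 ± 0.23, adjusted p = 0.35), the disulphide isomerase gene Agr2 (-0.82 ± 0.21, adjusted p = 0.38), the kallikrein gene Klk1 (-1.19 ± 0.28, adjusted p = 0.32) and the peptidase inhibitor gene Spink4 (-0.82 ± 0.21, adjusted p = 0.37), by limma. The others were Ccl9 (-1.51, adjusted p = 0.245), Galnt12 (-0.81 ± 0.27, adjusted p = 0.57) and Retnlb, by limma. Retnlb was not detected at day 4 and was at least 3.07-fold lower (adjusted p = 0.48, limma). Agr2 was at 7.28 and 7.19 in the controls and at 6.32 and 6.51 at day 4. The major mucus genes were closer to the controls, with differences of -0.43 ± 0.32 for the mucin gene Muc2, -0.23 ± 0.34 for the trefoil gene Tff3 and -0.10 ± 0.39 for Clca1 (adjusted p of at least 0.88, limma). Of 13 Paneth cell genes, 1 was lower at an unadjusted p under 0.05, Defa21, and 4 were lower without overlap (30.8% against 27.7%). Their median was -0.21, and 0.01 with quantile normalization.

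Of 15 endocrine lineage transcription factor genes, 3 were lower (20% against 4.2% of all features) and none higher at an unadjusted p under 0.05, with a median of -0.40. With quantile normalization, median scaling or normexp 2 were lower. Neurog3, which starts the endocrine lineage, was at 2.15 and 1.82 in the controls and at 0.96 on both day 4 arrays (-1.02 ± 0.23, adjusted p = 0.31, limma). Fev differed by -0.73 ± 0.27 and Nkx2-2 by -0.78 ± 0.33 (adjusted p = 0.64 and 0.72, limma). Of 21 hormone and granin genes, 2 were lower (9.52%), and none was with quantile normalization. These were Nts and Vgf (-0.89 and -0.74, adjusted p = 0.70 and 0.67, limma). Of 19 tuft cell genes, 2 were lower (10.5%), and 1 was with median scaling. These were the leukotriene synthase gene Ltc4s, at 3.06 and 3.38 in the controls and at 1.31 and 1.77 at day 4 (-1.68 ± 0.26, adjusted p = 0.13, limma), and the phospholipase gene Plcg2 (-0.64 ± 0.22, adjusted p = 0.60, limma). Of 21 crypt base stem cell genes, 1 was lower, Ascl2 (4.76% against 4.2% of all features), and none higher. Of 17 Wnt target and feedback genes, 2 were lower (11.8%), Notum (-1.45, adjusted p = 0.345, limma) and again Ascl2 (-0.77, adjusted p = 0.63, limma). The 1 higher gene was the Wnt receptor gene Fzd7 (1.07 ± 0.29, adjusted p = 0.42, limma). The stem cell receptor gene Lgr5 differed by 0.16 ± 0.28 (adjusted p = 0.97, limma).

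Immediate early genes were mostly below the controls. Of 28 members, 6 were lower (21.4% against 4.2% of all features) and 2 higher (7.14% against 2.76%) at an unadjusted p under 0.05, with 1 called, Fosb. The groups did not overlap for 16 that were lower (57.1% against 27.7%), and the median was -0.42. The stress-response phosphatase gene Dusp1 was at 0.46 and 0.77 in the controls and at -1.09 and -0.83 at day 4 (-1.58 ± 0.27, adjusted p = 0.17, limma). Atf3 differed by -1.82 ± 0.39 and Ppp1r15a by -1.46 ± 0.27 (adjusted p = 0.27 and 0.19, limma), while Fos differed by -0.15 ± 0.36 (adjusted p = 0.98, limma). The higher members were Ccn1, which is also a YAP target, and Arc (0.82, adjusted p = 0.54, limma). The median without day 4 replicate 1 was -0.17 and without day 4 replicate 2 it was -0.57.

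Metabolic lists had few members past an unadjusted p of 0.05, and their counts moved with the scaling. Of 41 xenobiotic cytochromes and conjugating enzymes 7 were lower (17.1% against 4.2% of all features) and 2 higher (4.88% against 2.76%), with a median of -0.32. With quantile normalization 4 were lower. The glutathione transferase gene Gstm1 was at 7.27 and 7.46 in the controls and at 5.61 and 6.38 at day 4 (-1.37 ± 0.36, adjusted p = 0.39, limma), and the sulphotransferase gene Sult1a1 differed by 1.28 ± 0.33 (adjusted p = 0.37, limma). Of 30 fatty acid oxidation and ketogenesis genes 5 were lower (16.7%) and 2 higher (6.67%). With quantile normalization or median scaling 2 were lower and 2 higher. The lower ones included the omega-hydroxylase genes Cyp4a10 (-1.11 ± 0.28) and Cyp4a31 (-1.08 ± 0.24), and the higher ones included the pantetheinase gene Vnn1 (1.29 ± 0.25), with adjusted p from 0.21 to 0.36 (limma). The respiratory chain genes had no member past an unadjusted p of 0.05, yet the groups did not overlap for 34 of 40 that were lower (against 27.7% of all features), with a median of -0.23. With quantile normalization that count was 22 of 40 (55.0% against 21.7%) and the median -0.10. The brush border hydrolases had none of 24 past it in either direction, and the lactase gene Lct differed by 0.10 ± 0.35 (adjusted p = 0.99, limma).

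Adhesion and matrix genes were mixed. Of 20 integrin, laminin and basement membrane genes, 4 were higher (20% against 2.76% of all features) and 1 lower (5.0% against 4.2%) at an unadjusted p under 0.05. The laminin chain genes Lamb2 (2.69 ± 0.48, adjusted p = 0.18), Lamc1 (0.96 ± 0.38, adjusted p = 0.70) and Lama5 (0.59 ± 0.24, adjusted p = 0.71) were among the higher ones, and Lama3 (-0.68 ± 0.22, adjusted p = 0.54) was the lower one, by limma. Lamb2 was detected on 1 control array, at -4.04 and -5.61, and was at -1.97 and -2.31 at day 4. Of 12 keratins on the list 3 were higher (25.0%, 1 with normexp), among them Krt7 (1.17 ± 0.31, adjusted p = 0.39, limma), and none was lower, while Krt31, not on the list, differed by -1.49. Of 16 Notch genes 3 were higher (18.8%, 1 with normexp) and 1 lower (6.25%). The ligand gene Jag2 was at -3.96 and -4.46 in the controls and at -1.85 and -1.95 at day 4 (2.31 ± 0.33, adjusted p = 0.097, limma), and the feedback gene Nrarp differed by -0.81 ± 0.25 (adjusted p = 0.53, limma). Of 15 fetal-like genes 3 were higher (20%) and 2 lower (13.3%). Beside Clu and Krt7 the higher one was the alarmin gene Il33, at 2.27 and 1.80 in the controls and at 3.83 and 4.23 at day 4 (1.99 ± 0.28, adjusted p = 0.088, limma), and the lower ones were Anxa10 (-1.71 ± 0.36, adjusted p = 0.26, limma) and Sprr1a (-1.89 ± 0.48, adjusted p = 0.36, limma).

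The 2 day 4 mice differed from each other in several lists. Relative to the control mean, the median of 32 mitosis genes was 0.69 on the replicate 1 array and -0.16 on the replicate 2 array, and that of 35 DNA replication genes was 0.47 and -0.30. The median of 8 MHC class II genes was 1.06 and -0.20, with the controls at -0.30 and 0.30. H2-Eb1 was at 4.89 and 3.47 on the day 4 arrays and at 2.49 and 3.86 in the controls. The 18 circadian clock genes ran the other way, at -0.42 and 0.24, and the 5 erythroid markers at -1.09 and 0.36. None of the 35 replication, 8 class II, 18 clock or 5 erythroid genes had an unadjusted p under 0.05, and of the mitosis genes 2 (6.25% against 2.76%), Kif23 (2.21 ± 0.62) and Ect2 (1.45 ± 0.37) did (adjusted p = 0.45 and 0.37, limma). The interferon-stimulated and YAP and TAZ target lists were among those with medians above both control arrays in both mice. The endocrine transcription factor, endoplasmic reticulum stress, goblet cell and respiratory chain lists were among those with medians below both. The median of all features also lay below both, at -0.11 and -0.07 on the day 4 arrays against 0.03 and -0.03 in the controls.

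**Figure D5:**
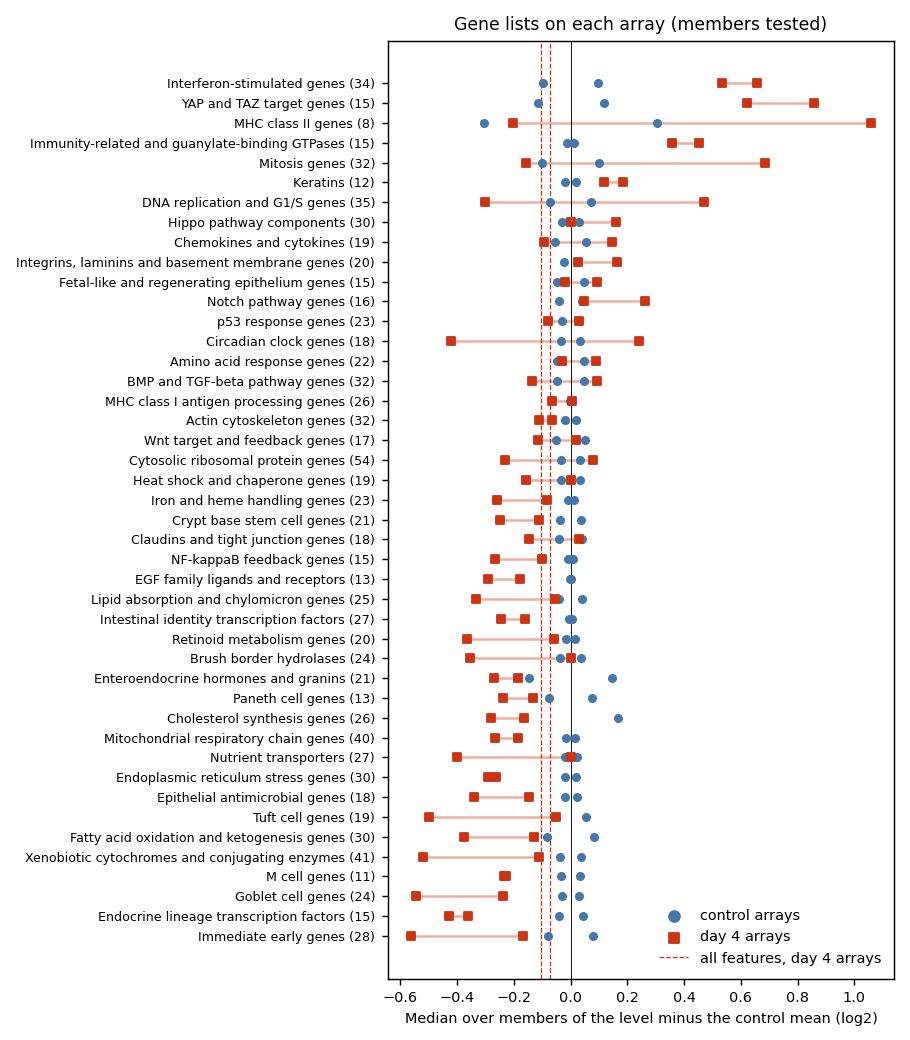
Median over the tested members of each of 44 gene lists of the level minus the control mean (log2, horizontal axis), with the number of members in brackets. Blue circles are control arrays, red squares are day 4 arrays, and dashed red lines are the medians of all features on the 2 day 4 arrays (-0.11 and -0.07). Interferon-stimulated genes (0.53 and 0.66 at day 4) and YAP and TAZ target genes (0.62 and 0.86) had the highest median differences. For both lists the 2 day 4 arrays lay above both controls, whereas MHC class II, mitosis and replication genes were spread between the 2 day 4 mice.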

How the data were processed

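RNA of intestinal epithelial cells was hybridised to 1-colour arrays. The deposited intensity values are gProcessedSignal of Agilent Feature Extraction 11.5.1.1, a background-subtracted and detrended signal, per the file headers, which give mm9 as build. The flags for detection, outliers and controls are of another kind and were also taken as deposited. Control spots and outlier spots were left out, log2 values of repeated spots were averaged, and each array's 75th percentile of log2 signal was subtracted. Of 55681 probes, 27509 had 1 symbol through RefSeq names of GRCm38.p6, 28172 had none and none had several. A gene was represented by its brightest tested probe.

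limma 3.58.1 (R 4.3.3, data.table version 1.17.8) fitted a mean for each group to the 7 arrays, with 3 residual and 3.74 prior degrees of freedom, 2-sided tests and Benjamini-Hochberg adjustment over 23061 features. The lone day 10 array adds no spread. "At least" folds are taken against the lowest detected signal of the undetected arrays or the probe's own, if higher.

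The members, 54 gene lists and tests were chosen with earlier results of these data known. Lists are described by counts, shares and medians, with no test of the list. Named were the called genes, both Mob1 genes, the extremes of difference (12 on each side) and the 8 higher and 8 lower genes of smallest p among genes at an unadjusted p under 0.01 without overlap (predicted genes left out), and up to 3 members a list. Other genes were chosen after their values were seen, and some genes under the rule are not reported here. Replicates are different mice per the design text. Depth is set by the number of arrays. Alternatives changed the background (normexp on median signals, as the planned mean signals were not used here), scaling, filter, samples, block, probe summary and source. The deposited series values equalled gProcessedSignal within 0.1% for 100% of probes with 1 spot, linear and not centred.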

Additional observations from a re-analysis of the deposited data

How the results depend on the processing

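With normexp background correction 18 features were called, 14 of them higher, and 12 of the 18 were among the 31. In that setting 206 higher and 117 lower features had a difference of at least 1 without overlap. Median scaling gave 41 higher calls. With no filter on dim probes 2 features were called, 2 higher and 0 lower, while 1622 were lower at an unadjusted p under 0.05 and 790 higher and 1165 lower features had a difference of at least 1 without overlap. Only probes detected on all 4 arrays gave 20 calls, of which 17 were higher and 17 were among the 31. These probes gave 232 higher and 246 lower features with such a difference. Fitting only the 4 arrays gave 13 calls, 11 higher and 2 lower, and 10 of the 13 were among the 31. The filter of detection on 2 of 7 arrays, added after the data were seen, gave 8 calls by limma, 8 higher and 0 lower (915 lower at an unadjusted p under 0.05). In these settings the cause was not tested beyond the change in features or arrays that the setting itself makes. Leaving out each array in turn gave between 1 and 166 calls (1 to 62 higher, 0 to 104 lower), between 427 and 1293 higher and 490 and 1456 lower features at an unadjusted p under 0.05, and between 416 and 1156 higher and 380 and 1155 lower features with a difference of at least 1 without overlap. A group left with 1 array takes its spread from the other groups. Same-numbered arrays share only a number (correlation of deviations 0.01 for control and day 4, 0.11 for control and day 7 and 0.33 for day 4 and day 7). With the replicate number as a block 36 features were called, 27 of them shared with the 31, and Clca3a1, Glipr1, Gm10046 and Psg18 were not. The other counts stayed within 1.5 times with quantile normalization (37 calls), the percentile over probes detected on all 7 (24), the mean of a gene's probes (34), outlier spots kept (31), the deposited value table (32) and no day 10 array (31). Scaling moved the median of all features by less than 0.1. Of the named genes, sign changes were seen in Elavl4, H2-Ab1, Hba-a2, Lct, Mcm6, Rps14, Tef and Tnip1, whose adjusted p was 0.97 or more (limma). With normexp Elavl4 was -0.13, Mcm6 -0.088 and Hba-a2 0.021. With quantile normalization Rps14 was 0.16 and Tef 0.10. Tef was 0.021 with median scaling and 0.018 with the percentile over detected probes, and Tnip1 was -0.18 with the mean of probes. Leaving out 1 array moved Elavl4 between -0.35 and 0.37, H2-Ab1 between -0.21 and 0.72, Hba-a2 between -1.09 and 0.36, Lct between -0.15 and 0.35, Mcm6 between -0.31 and 0.52, Tef between -0.41 and 0.34 and Tnip1 between -0.23 and 0.44. Signals close to background limit the genes not detected in the controls, whose folds are bounds.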

Other observations

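Probes for intergenic and intronic intervals, named in the files by their mm9 coordinates, made 4730 of the features tested. None was called, and of the 4730, 96 were higher and 260 lower at an unadjusted p under 0.05 (limma). Over all 23061 features, 637 were higher (2.76%) and 969 lower (4.2%). The median difference of the interval probes was -0.13, against -0.07 for genes with a symbol and -0.08 over all features. The probe for chr12:111617728-111665403 (reverse strand) was at least 2.74-fold lower (adjusted p = 0.058, limma) and not detected at day 4. The probe for chr4:13369325-13456750 (forward strand) was at least 2.69-fold higher (adjusted p = 0.058, limma) and not detected in the controls. The probe for chr2:77715502-77719430 (forward strand), detected on all 4 arrays, had a difference of -1.62 ± 0.20 (adjusted p = 0.062, limma). Both probes for the interval chr6:3283191-3284581 (reverse strand) were higher. One, not detected in the controls, was at least 4.185-fold higher (adjusted p = 0.082, limma). The other differed by 2.91 with detection on 1 control array (adjusted p = 0.22, limma). Both probes for chr8:126268510-126290810 (reverse strand) were lower, by -1.42 and -1.38 (adjusted p = 0.14 and 0.18, limma).

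A probe without a symbol, A_51_P497255, was at least 77.0-fold higher. It was not detected in the controls, at -6.48 and -6.50, and was at 1.15 and 1.79 at day 4, yet its adjusted p was 0.17 (limma), and the 2 day 7 arrays differed widely, at -5.82 and -0.90. Another, A_55_P1990870, was at -2.82 and -3.28 in the controls and at 1.06 and 1.18 at day 4 (4.16 ± 0.50, adjusted p = 0.055, limma).

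Among the p53 response genes, 3 of 23 were higher (13.0% against 2.76% of all features) and 2 lower (8.7% against 4.2%) at an unadjusted p under 0.05, with Phlda3 at 2.08 ± 0.59 (adjusted p = 0.46, limma). Of 22 amino acid response genes 2 were higher (9.09%), the serine synthesis gene Psat1 (1.53 ± 0.39, adjusted p = 0.37, limma) and Chac1 (1.39 ± 0.48, adjusted p = 0.60, limma), and Cebpb was lower (4.55% of the list, -0.62 ± 0.21, adjusted p = 0.58, limma). Of 5 tested B cell and plasma cell markers 2 were lower (40.0%), with Jchain at 0.60 and 0.98 in the controls and at -1.73 and -0.60 at day 4 (-1.95 ± 0.47, adjusted p = 0.34, limma).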
